A study of Mus musculus with 9 samples.

Results

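The genes described here are 10 genes of T cell costimulation and dendritic cell (DC) maturation, measured by bulk RNA-seq in pre-cDCs, the circulating precursors of conventional DCs (cDCs). They were taken by symbol from the 51912 genes of the deposited count table, and all 10 were found: Cd40, Cd80, Cd86, Cd83, Cd274, Pdcd1lg2, Icosl, Fscn1, Socs2 and Tnfsf9. Bone marrow (BM) gave 6 of the 9 samples, 3 of each genotype (WT and DNGR-1 KO), and spleen gave the other 3, of which 1 was WT and 2 were KO. DNGR-1, encoded by Clec9a, is a receptor for actin filaments exposed by dead cells. Cells of both genotypes developed side by side in lethally irradiated recipients of mixed BM, so that irradiation and transplantation were shared by all groups and the mice received no other treatment. WT cells carried the CD45.1 allele and DNGR-1 KO cells, in which both Clec9a alleles hold Cre (Clec9aCre/Cre), carried CD45.2. Genotype and CD45 allele therefore cannot be told apart, although none of the 10 genes lies on chromosome 1, where the CD45 gene is found. One label field of the WT samples names CD45.2 in place of CD45.1, and the CD45.1 of the methods was used here. Each sample was pooled from a pair of mice, and which samples shared mice was not given, so that p-values measure the spread between samples that may be partly technical.

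A naive T cell needs a signal from its antigen receptor and a second, costimulatory signal from the antigen-presenting cell. Resting DCs carry few costimulatory molecules. When they mature, after microbial stimulation or during steady-state migration, they raise ligands of the B7 and TNF families together with the CCR7 chemokine receptor and a remodelled actin skeleton. Among the 10 genes, Cd80 and Cd86 encode the B7 ligands of CD28 and CTLA-4, Icosl the ligand of ICOS, and Cd274 and Pdcd1lg2 the PD-1 ligands PD-L1 and PD-L2, which restrain T cells. Cd40 encodes the receptor through which CD40L on T cells licenses DCs, Tnfsf9 the ligand of 4-1BB, Cd83 a surface marker of mature DCs, Fscn1 the actin-bundling protein fascin, and Socs2 an inhibitor of cytokine signalling through JAK and STAT proteins.

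Total counts were 17103806 to 23722298 per sample, at which 3 counts equal 0.126 to 0.175 CPM (counts scaled to a fixed total per sample). Floors and intervals cover counting error only. Clec9a followed the genotype labels, with 905 to 2459 counts in WT and 0 or 1 in DNGR-1 KO samples. The 10 pre-cDC markers were above 3 counts in every sample, with a summed level of 4429 to 7332 CPM in BM and 3567 to 4059 CPM in spleen. The spleen samples also held more transcripts that serve as markers of other cells. The 10 T cell markers summed to 6.03 to 14.1 CPM in BM and 1178 to 4573 CPM in spleen, the 6 erythroid markers to 47.0 to 308 CPM and 8669 to 50333 CPM, and the 5 cDC1 markers to 9.29 to 58.4 CPM and 105 to 622 CPM. The 7 neutrophil markers ran the other way, with 850 to 2723 CPM in BM and 0 to 0.973 CPM in spleen. Most of the BM sum came from Mpo (13857 to 46964 counts), and Ly6g had only 0 to 19 counts in BM. The spleen samples stood apart in a further respect. The pair of KO samples differed in that 9.75% of genes reaching 100 counts in either one had no more than 3 counts in its partner, against 0.0710% to 0.397% in the 6 within-group pairs of BM samples. Cd274 and Socs2 were among these genes. In bulk samples, fewer cells of a type and less RNA per cell cannot be told apart.

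**Figure D1:**
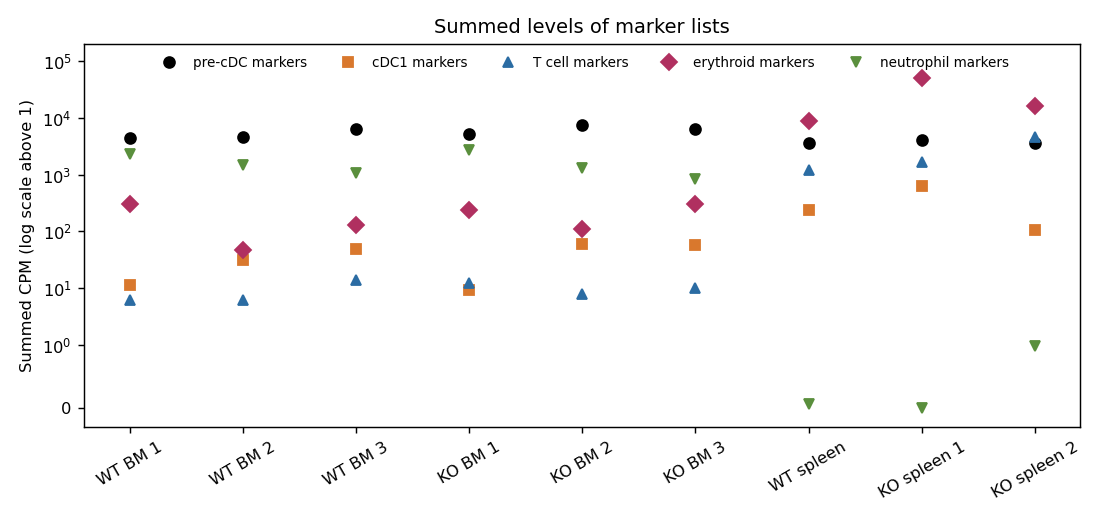
Summed CPM of 5 marker lists (y axis, logarithmic above 1) in each of the 9 samples (x axis); each point is 1 sample. The T cell, erythroid and cDC1 points are higher in all 3 spleen samples than in any BM sample, and the neutrophil points fall to between 0 and 0.973 CPM in spleen.

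The B7 family genes lie on 3 chromosomes in GRCm38: Cd80 and Cd86 on chromosome 16, Cd274 and Pdcd1lg2 on the plus strand of chromosome 19 at 29367455 to 29388095 and 29410919 to 29471161, and Icosl on chromosome 10. RefSeq start sites were given for 5 of the 10 genes (Cd80, Cd274, Pdcd1lg2, Icosl and Fscn1). The stretches before the start sites of the 4 B7 family genes among them are shown because these genes had unlike patterns in spleen, described further on. They are RefSeq sequences of the plus strand in GRCm38.p6, 250 bases long or, for Icosl, the 184 bases before the first annotated exon. The Cd80 window stands before a RefSeq start site but lies inside the gene as annotated for the counts, which starts at 38455561. Capitals mark matches, on either strand, to TGANTCA or to the kappa B consensus. TGANTCA is a loose form of the AP-1 element that allows any base at the centre. TTCNNNGAA, the element bound by STAT proteins, was searched as well.
Cd80, chr16:38458683-38458932: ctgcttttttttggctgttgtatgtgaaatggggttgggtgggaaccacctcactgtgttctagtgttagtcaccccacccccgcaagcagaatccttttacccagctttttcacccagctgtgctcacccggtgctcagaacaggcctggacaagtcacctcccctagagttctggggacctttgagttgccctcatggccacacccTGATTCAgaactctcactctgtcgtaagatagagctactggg
Cd274, chr19:29367188-29367437: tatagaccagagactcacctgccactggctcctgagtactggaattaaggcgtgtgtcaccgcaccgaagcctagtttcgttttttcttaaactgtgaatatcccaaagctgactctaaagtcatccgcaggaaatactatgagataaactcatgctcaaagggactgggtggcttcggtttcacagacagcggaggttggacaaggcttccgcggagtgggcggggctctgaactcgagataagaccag
Pdcd1lg2, chr19:29410669-29410918: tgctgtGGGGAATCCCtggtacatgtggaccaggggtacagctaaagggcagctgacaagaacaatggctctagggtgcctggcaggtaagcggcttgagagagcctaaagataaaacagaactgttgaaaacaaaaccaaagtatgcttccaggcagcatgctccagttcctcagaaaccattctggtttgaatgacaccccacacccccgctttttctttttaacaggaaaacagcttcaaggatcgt
Icosl, chr10:78069118-78069301: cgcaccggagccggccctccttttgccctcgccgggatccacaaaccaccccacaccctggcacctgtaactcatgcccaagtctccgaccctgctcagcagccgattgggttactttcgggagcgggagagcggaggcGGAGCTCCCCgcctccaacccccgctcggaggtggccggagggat

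Cd80 held 1 TGANTCA match, with T at the centre, at 38458891 to 38458897. Pdcd1lg2 and Icosl each held 1 kappa B match, at 29410675 to 29410684 and 78069257 to 78069266, and no match of the 3 motifs was found in the windows of Cd274 and Fscn1. Of 32851 promoter windows of 250 bases, 7.25% held a kappa B match, 6.75% a TGANTCA match and 7.02% a TTCNNNGAA match. These are matches of letters in a short window and not binding sites measured in these cells.

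The levels of the 10 genes per length of transcript (RPKM, which is CPM divided by the exon length in kilobases) spanned a wide range in BM. The costimulatory ligand gene Tnfsf9 was highest, with a median of 25.4 RPKM over the 6 BM samples (range 23.5 to 43.0), and its range lay above that of Icosl (median 8.69, range 4.43 to 15.2). Cd40 followed with a median of 3.85 RPKM, Cd86 with 2.81 RPKM and Cd83 with 1.86 RPKM, and each of these ranges overlapped that of its neighbour. Cd80 (median 0.303 RPKM), Cd274 (0.259 RPKM) and Fscn1 (0.113 RPKM) were low, and the median was 0 for Pdcd1lg2 and Socs2. In BM, Pdcd1lg2 exceeded 3 counts in 1 of 6 samples and Socs2 in 2 of 6. BM pre-cDCs thus carried transcripts of Tnfsf9, Icosl and Cd40, and transcripts of both PD-1 ligands were few or not detectable at this depth.

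In spleen 5 genes had similar medians per length, but not similar levels in each sample. In WT spleen Cd86 was at 3.94 RPKM and Tnfsf9 at 39.4 RPKM. Medians over the 3 samples were 25.9 RPKM for Cd83, 25.7 RPKM for Tnfsf9, 19.7 RPKM for Cd86, 18 RPKM for Icosl and 13.1 RPKM for Cd40, and the ranges of neighbours in this order overlapped. Cd274 followed with a median of 7.90 RPKM, from 0.0117 to 15.6 RPKM. Pdcd1lg2 (1.94 RPKM), Cd80 (0.527 RPKM), Fscn1 (0.477 RPKM) and Socs2 (0.0124 RPKM) were at the end of the order, again with overlapping ranges.

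**Figure D2:**
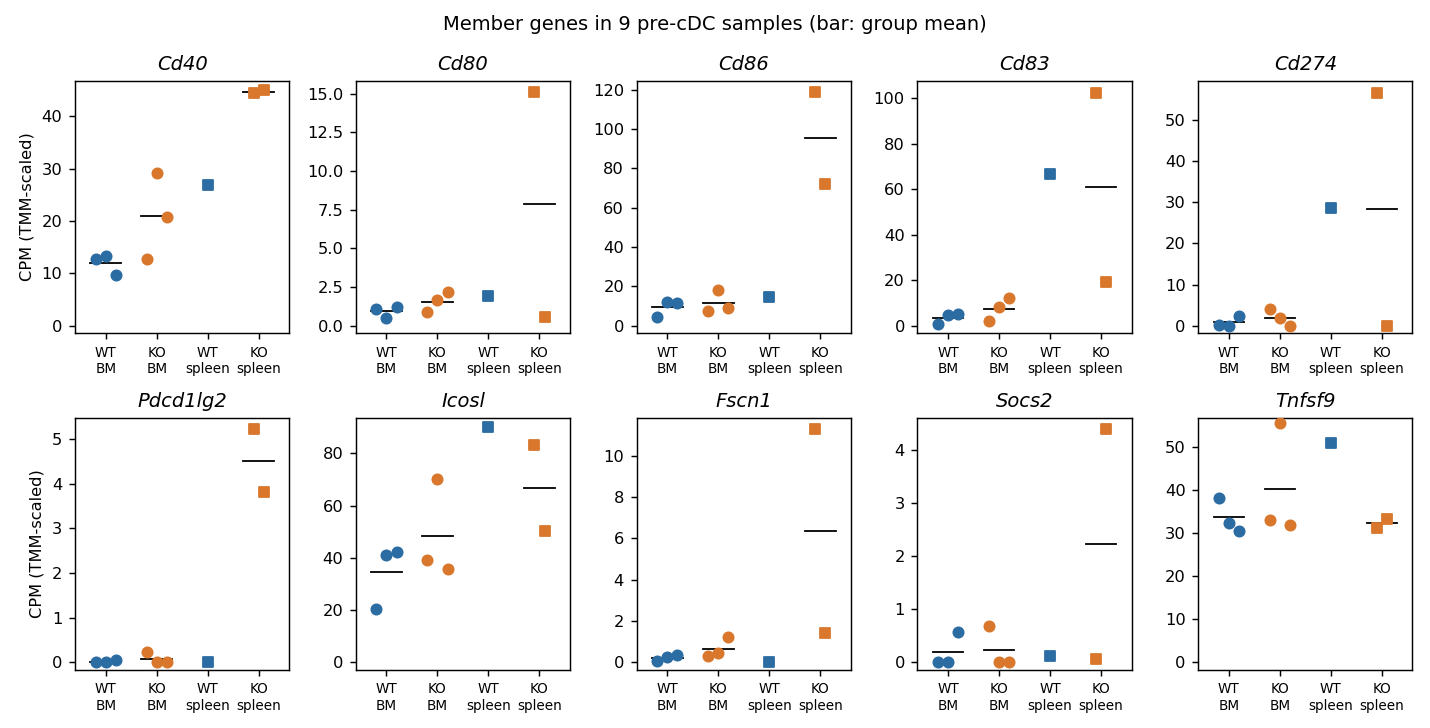
TMM-scaled CPM (y axis, a scale of its own for each gene) of the 10 genes in the 9 samples by genotype and tissue (x axis); each point is 1 sample and bars are group means. The WT and DNGR-1 KO points of BM overlap for every gene, and Cd83 is the only gene whose 3 spleen points all lie above its 6 BM points.

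The first comparison asked how the genotypes differ in BM. None of the 10 genes passed the threshold of 0.05 there, and the ranges of WT and DNGR-1 KO overlapped for all 10. Levels from here on are CPM scaled by edgeR's TMM method. Cd40 had the lowest p of the group. It was at 12.8, 13.4 and 9.59 CPM in WT BM samples 1 to 3 and at 12.8, 29.1 and 20.8 CPM in DNGR-1 KO BM samples 1 to 3. Samples 2 and 3 of the KO were above all WT samples, and sample 1 was within their range. The log2 fold change was 0.79 (SE 0.35, edgeR's quasi-likelihood test, adjusted p = 0.861).

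Cd83 was at 0.591, 4.56 and 5.03 CPM in WT and at 2.28, 8.07 and 12.1 CPM in DNGR-1 KO BM samples. The log2 fold change of 1.13 had a standard error of 0.77 (edgeR, adjusted p = 0.861). Icosl, at 20.5, 40.9 and 42.3 CPM in WT and 39.3, 70.3 and 35.7 CPM in KO BM, had a log2 fold change of 0.47 (SE 0.36). In the second KO sample Cd40, Cd86, Icosl and Tnfsf9 each had their highest BM value. Cd86 was at 4.67, 11.9 and 11.5 CPM in WT and at 7.24, 18.1 and 9.01 CPM in KO BM samples, with a log2 fold change of 0.27 (SE 0.46).

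Cd274 was close to an on or off pattern among BM samples of both genotypes. Its counts were 1, 0 and 48 in WT and 90, 37 and 0 in KO BM. Its log2 fold change of 1.21 had a standard error of 1.65, larger than the change itself. Tnfsf9, which was at 30.4 to 38.2 CPM in WT and at 31.8 to 55.5 CPM in KO, had a log2 fold change of 0.24 (SE 0.28). Cd80 stayed at 0.518 to 2.15 CPM over the 6 samples, with a log2 fold change of 0.75 (SE 0.72).

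Of the 10 genes 7 passed the filter on low counts in BM, and 0 of these 7 passed the threshold by edgeR, DESeq2 or limma-voom, beside 0.0307% of the 13016 genes tested by edgeR. Only Cd40 among the 7 had an unadjusted p under 0.05 in the edgeR test. All 7 log2 fold changes were positive, with a median of 0.75 where the median of all genes tested was -0.0045. The sign was not stable for each gene: without KO BM sample 2 the log2 fold change was -0.20 for Cd86 and -0.054 for Tnfsf9, and without WT BM sample 1 it was -0.04 for Cd86. Pdcd1lg2, Fscn1 and Socs2 were below the filter. Fscn1 had 1, 5 and 7 counts in WT and 7, 9 and 25 counts in KO BM, so that the lowest KO count equalled the highest WT count. Without overlap between genotypes, 5.12% of the tested genes were higher in KO, and 0 of the 10 genes were. The summed cDC1 markers also varied among the BM samples: they were lowest in WT BM sample 1 and KO BM sample 1 (11.2 and 9.29 CPM) and highest in KO BM samples 2 and 3 (58.4 and 57.8 CPM). Cd83 was lowest and highest in the same pairs of samples, whereas Cd274 had its highest BM count in KO BM sample 1 and 0 counts in KO BM sample 3. The part of cDC1 transcripts in these values was not tested.

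The same comparison was read for the other genes of costimulation and maturation. Of 15 further costimulatory and coinhibitory ligand genes 10 were tested, and of 24 further maturation genes 19, and none passed the threshold in BM (median log2 fold changes 0.41 and 0.45). The same was true of the 1 tested gene among 6 T cell receptor genes for these ligands and of the 7 genes of GM-CSF receptor, STAT5 and SOCS signalling. With 3 samples per genotype, the lowest p that an exact permutation test could reach is 0.1.

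The second comparison set spleen against BM pre-cDCs in a fit of the 9 samples that included genotype as a term. Cd40, Cd86 and Cd83 were higher in spleen, no gene of the group was lower, and Tnfsf9 had nearly the same level in both tissues. Cd83, the maturation marker, had the widest separation. It was at 66.6 CPM in the WT spleen sample and at 103 and 19.1 CPM in the KO spleen samples, where the BM samples were at 0.591 to 12.1 CPM with a median of 4.79 CPM. Every spleen sample was therefore above every BM sample. The log2 fold change was 3.57 (SE 0.76, edgeR, adjusted p = 0.0109), and an exact two-sided permutation test over the tissue labels had p = 0.0119, the lowest value possible for 6 BM and 3 spleen samples. The call was lost without the WT spleen sample (log2 fold change 3.04, edgeR, adjusted p = 0.0760) and held when any other sample was left out.

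Cd86 was at 14.4 CPM in the WT spleen sample, within the BM range of 4.67 to 18.1 CPM, and at 119 and 72.0 CPM in the KO spleen samples. The 2 KO samples thus carried the tissue difference of a log2 fold change of 2.35 (SE 0.61, edgeR, adjusted p = 0.0258). With 1 sample left out the adjusted p from edgeR ranged from 0.00712 to 0.0756, and the call was lost without KO BM sample 1, 2 or 3 or without KO spleen sample 1. Cd40 was at 26.9 CPM in WT spleen and at 44.5 and 44.9 CPM in KO spleen, against a median of 13.1 CPM in BM. Only KO BM sample 2, at 29.1 CPM, reached into the spleen range. The log2 fold change was 1.14 (SE 0.33, edgeR, adjusted p = 0.0393). This call rested on the margin of the threshold, since with 1 sample left out it held only without KO BM sample 2, and the log2 fold change was 1.02 to 1.35 throughout.

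The other B7 family ligands did not pass. Icosl was at 90.2 CPM in WT spleen and 83.2 and 50.2 CPM in KO spleen, and at 20.5 to 70.3 CPM in BM, so that KO spleen sample 2 fell within the BM range. Its log2 fold change was 0.86 (SE 0.35, edgeR, adjusted p = 0.120). Cd80 was at 1.95 CPM in WT spleen, at 15.1 CPM in KO spleen sample 1 and at 0.592 CPM in KO spleen sample 2, a spread larger than that between tissues (log2 fold change 1.92, SE 0.95, edgeR, adjusted p = 0.194).

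Cd274 was the gene most divided among the spleen samples. It had 484 counts in WT spleen and 1020 counts in KO spleen sample 1, and 1 count in KO spleen sample 2, which corresponds to 0.0423 CPM with an exact (Clopper-Pearson) 95% interval of 0.00107 to 0.236 CPM. Both first values were above every BM count (0 to 90), and the last was at the bottom of the BM range. The log2 fold change of 4.39 had a standard error of 1.81 (edgeR, adjusted p = 0.122), and DESeq2 placed it just past the threshold (adjusted p = 0.0490). Without KO spleen sample 2 both Cd274 and Cd80 passed the threshold (edgeR, adjusted p = 0.0435 and 0.0424).

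Pdcd1lg2 was below the filter in this comparison. It had 0 to 5 counts in the 6 BM samples and 0 in WT spleen, but 94 and 90 counts in the KO spleen samples. Fscn1 was also at 0 counts in WT spleen, with 203 and 34 counts in the KO spleen samples and 1 to 25 counts in BM (log2 fold change 2.14, SE 1.64). Socs2 exceeded 3 counts in 3 of 9 samples. It had 104 counts in KO spleen sample 2, 15 in KO BM sample 1 and 11 in WT BM sample 3. KO spleen sample 2 was thus high for Socs2 and low for Cd274, and KO spleen sample 1 was the reverse, with 1 count of Socs2. Tnfsf9 was at 50.8 CPM in WT spleen, at 31.3 and 33.2 CPM in KO spleen and at 30.4 to 55.5 CPM in BM. Its log2 fold change was 0.08 (SE 0.30, edgeR, adjusted p = 0.901). The WT spleen value was above all WT BM samples (30.4 to 38.2 CPM), whereas KO BM samples were at 31.8 to 55.5 CPM. A difference between genotypes in the tissue change was not tested.

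**Figure D3:**
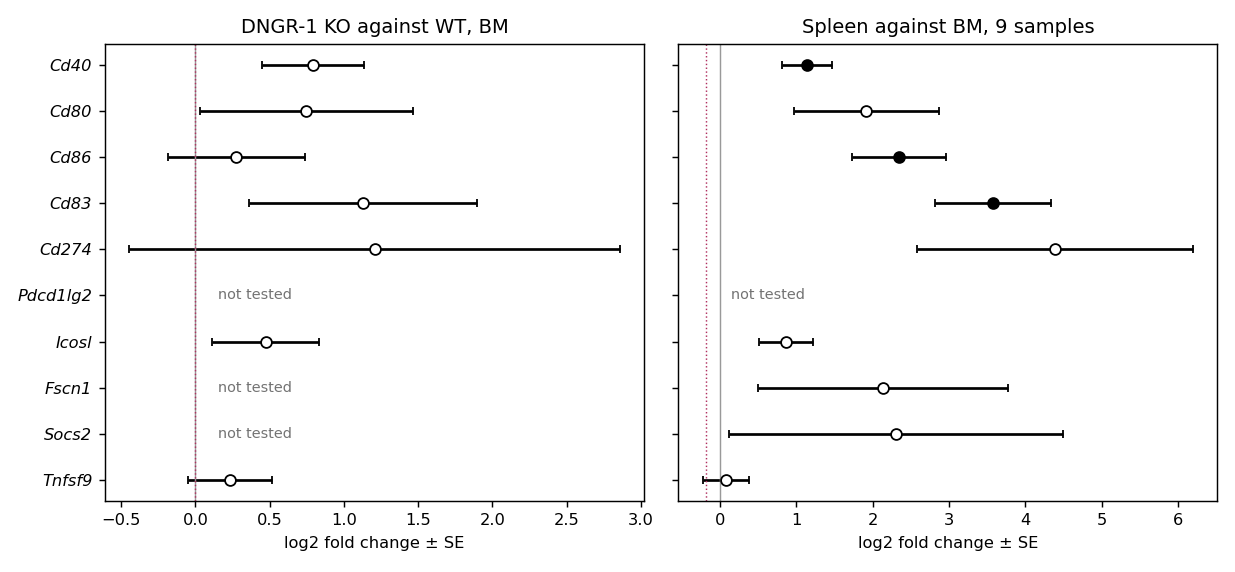
Log2 fold changes with standard errors (x axis) of the 10 genes (y axis) for DNGR-1 KO against WT in BM (left, 3 against 3 samples) and spleen against BM (right, 3 against 6 samples). Filled points passed an adjusted p of 0.05, the dotted line is the median of all genes tested, and the 7 tested genes at left and the 9 at right all lie to the right of 0.

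Together 3 of the 9 tested genes were higher in spleen and 0 were lower. Over all 13468 genes tested, 19.5% passed the threshold, 7.28% as higher and 12.3% as lower in spleen. The median log2 fold change was 2.14 for the 9 genes and -0.18 for all genes. Samples of the tissues did not overlap for 1 of the 9 genes (Cd83), where 9.04% of all tested genes were higher in spleen without overlap. Beside these values stand the summed markers of other cells in spleen given above. The 5 cDC1 markers were at 239 CPM in WT spleen, 622 CPM in KO spleen sample 1 and 105 CPM in KO spleen sample 2, and Cd83, Cd274 and Cd80 had the same order of the 3 samples (KO sample 1, WT, KO sample 2). Of the B cell markers 3 of 6 were at or under 3 counts in every spleen sample. The list summed to 34.7 to 46.5 CPM in spleen and 37.7 to 58.4 CPM in BM, most of it from Cd79b. Ms4a1 had 0 counts in WT spleen, 213 and 222 counts in KO spleen samples 1 and 2, and 0 or 1 in BM. Cd79a had 49 counts in KO spleen sample 1. The 7 macrophage and monocyte markers summed to 7.83 to 21.5 CPM in BM and 171 to 559 CPM in spleen, and the 6 NK cell markers to 29.3 to 87.8 CPM and 548 to 890 CPM. Most of the NK cell sum came from Klrd1. Of the 6 NK cell markers 4 exceeded 3 counts in every spleen sample, and Ncr1 and Klrb1c had 0 counts in WT spleen. The 5 cDC2 markers summed to 401 to 813 CPM in BM, 1648 CPM in WT spleen, and 761 and 922 CPM in KO spleen samples 1 and 2. The 5 plasmacytoid DC markers summed to 285 to 386 CPM in BM and 155 to 400 CPM in spleen. The part of cDC1, cDC2, plasmacytoid DC, T cell, NK cell, B cell, macrophage or erythroid transcripts in the tissue differences was not tested.

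The wider maturation list moved in the same direction. Of 24 other DC maturation genes 20 were tested, 12 were higher in spleen and none was lower, with a median log2 fold change of 2.39. Over all genes tested, 7.28% were higher and 12.3% lower. Traf1, an adaptor of TNF receptors, was at 3.01 to 8.65 CPM in BM and at 71.4, 201 and 175 CPM in spleen (log2 fold change 4.46, SE 0.44, edgeR, adjusted p = 0.000287). Ccr7, the receptor that guides DCs to lymph nodes and that T cells carry as well, was at 1.61 to 9.01 CPM in BM and at 82.5, 116 and 316 CPM in spleen (log2 fold change 4.78, SE 0.59, edgeR, adjusted p = 0.000926). Il4i1, an amino acid oxidase of mature DCs, was at 2.0 to 5.65 CPM in BM and at 83.9, 46.2 and 19.1 CPM in spleen (log2 fold change 3.63, SE 0.49, edgeR, adjusted p = 0.00137). For these 3 genes all spleen samples were above all BM samples, but their order within spleen differed: Ccr7 was highest in KO sample 2, where the T cell markers were also highest at 4573 CPM, and Il4i1 was lowest there. The chemokine genes Ccl17 and Ccl22 had at most 6 counts in any sample.

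Among 15 other ligand genes 10 were tested, of which 4 were higher and 3 lower in spleen, beside 7.28% and 12.3% of all genes tested. Icam1, which encodes an adhesion ligand of LFA-1, was at 32.4 to 79.0 CPM in BM and 162 to 195 CPM in spleen (log2 fold change 1.72, SE 0.23). Tnfsf8, the CD30 ligand gene, had a log2 fold change of 3.13 (SE 0.61) and Tnfsf14, the LIGHT gene, one of 2.25 (SE 0.51). In WT spleen and KO spleen samples 1 and 2, Tnfsf8 was at 18.2, 24.6 and 68.0 CPM, the order of the summed T cell markers (1178, 1686 and 4573 CPM). Tnfsf14 had another order, at 21.1, 37.9 and 21.8 CPM. Vsir, the VISTA gene, was the remaining gene higher in spleen (1.02, SE 0.23). Lgals9, the galectin-9 gene, was lower, at 226 to 878 CPM in BM and 106 to 169 CPM in spleen (log2 fold change -1.74, SE 0.39), as was Tnfrsf14, which encodes HVEM, at 4.41 to 12.7 CPM and 0.222 to 1.40 CPM. Tnfsf15 was the third, with 0 to 49 counts in BM and 0 counts in every spleen sample. The adjusted p values of these 7 genes were 0.00144 to 0.0304 by edgeR.

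Transcripts of some T cell receptors for these ligands were found in the spleen samples themselves, but not of all 6 in each sample. Of 6 genes 3 were tested and 2 were higher in spleen, beside 7.28% of all genes tested. Cd28 was at 0.236 to 2.26 CPM in BM and 33.8 to 110 CPM in spleen, and Icos was at 0 to 1.35 CPM and 11.5 to 25.7 CPM (log2 fold changes 5.41 and 5.36, edgeR, adjusted p = 0.00103 and 0.0280). Pdcd1 had 216 counts in KO spleen sample 2 and 0 in both other spleen samples, and Ctla4 had 137 counts in KO spleen sample 1 and 0 in both others. Tnfrsf9, which encodes 4-1BB, had 92 counts in WT spleen and 5 and 909 in KO spleen samples 1 and 2. Cd40lg, which encodes CD40L, had 0 counts in WT spleen and 2 and 0 in these KO samples. Of the 7 genes of GM-CSF receptor, STAT5 and SOCS signalling, Socs3 was higher in spleen (0.0518 to 1.23 CPM in BM, 13.1 to 30.6 CPM in spleen, log2 fold change 5.32, SE 0.91, edgeR, adjusted p = 0.00404), and the other 6 did not pass.

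**Figure D4:**
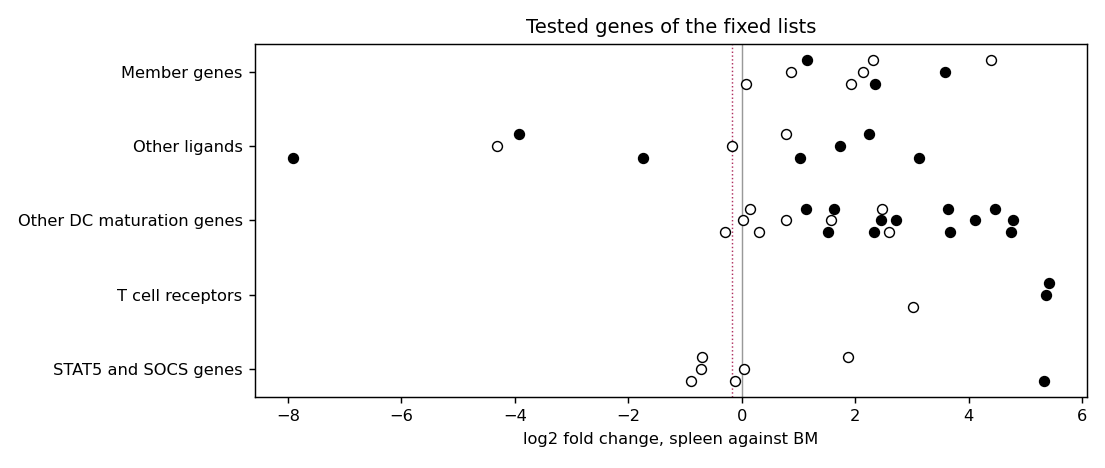
Log2 fold changes of spleen against BM (x axis) for the tested genes of the 5 lists (y axis); each point is 1 gene, filled where the adjusted p was under 0.05, and the dotted line is the median of all genes tested. All filled points among the member and other DC maturation genes lie above 0, whereas those of the other ligands lie on both sides.

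Within DNGR-1 KO alone, 2 spleen samples were compared with the 3 BM samples that the other comparisons also used. Here Cd86 passed the threshold. Its log2 fold change was 3.08 (SE 0.50, edgeR, adjusted p = 0.0247), with 7.24 to 18.1 CPM in BM and 72.0 and 119 CPM in spleen. All 10 genes passed the filter, Pdcd1lg2 through its spleen samples only, and 1 of them was called higher, beside 3.71% of the 13433 genes tested. Cd83 (log2 fold change 3.04, SE 0.93, adjusted p = 0.0912) and Cd40 (1.11, SE 0.43, adjusted p = 0.160) had sizes close to those over all samples in the same test by edgeR. The call for Cd86 was lost without KO BM sample 1, 2 or 3 (0 genes of the group past the threshold). Without either KO spleen sample, the lone remaining spleen sample is assumed to vary like the BM samples, so calls are not given. With 1 sample left out, log2 fold changes were positive throughout for Cd40, Cd86, Cd83, Pdcd1lg2, Icosl and Fscn1. They changed sign for Cd80 (-1.38 to 3.28), Cd274 (-5.36 to 5.0), Socs2 and Tnfsf9.

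The genotypes in spleen can be set side by side without a test, because WT spleen was 1 sample. Cd86, Pdcd1lg2 and Fscn1 were higher by more than 1 on the log2 scale in both KO samples. Cd86 was at 14.4 CPM in WT (exact 95% interval 12.7 to 16.4 CPM), and the KO samples were 8.23-fold and 4.99-fold higher. Pdcd1lg2 was at least 29.4-fold and 21.5-fold higher in KO samples 1 and 2 than the 3 counts that a count of 0 in the WT library allows. Fscn1 was at least 63.5-fold and 8.11-fold higher by the same measure. In WT spleen Pdcd1lg2 and Fscn1 were below detection while Cd274 had 484 counts, so the PD-1 ligands were unlike each other in that sample.

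No gene of the group was lower by more than 1 in both KO samples. For Cd40 the KO samples were 1.65-fold and 1.67-fold the WT value, and for Tnfsf9 0.615-fold and 0.653-fold, in each case nearly equal to each other. The KO samples lay on opposite sides of the WT value for 3 further genes. Cd80 was 7.74-fold the WT value in KO sample 1 and 0.303-fold in KO sample 2, Cd83 1.54-fold and 0.286-fold, and Cd274 1.98-fold and 0.00148-fold. Socs2 was above the floor in KO sample 2 only, at least 24.8-fold higher than 3 counts in WT. Icosl was below the WT value in both KO samples, at 0.922-fold and 0.557-fold. Over all 13218 genes, 16.5% were higher and 9.03% lower by this rule, so that with 1 WT sample and 3 of 10 genes the group can only be described. The median log2 difference was 0.70 for the 10 genes and 0.16 for all genes. WT spleen had the fewest genes over 3 counts, 10813 against 12135 and 12064 in the KO spleen samples. Of 8389 genes that reached 100 counts in each KO spleen library, 509 had no more than 3 in WT spleen.

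**Figure D5:**
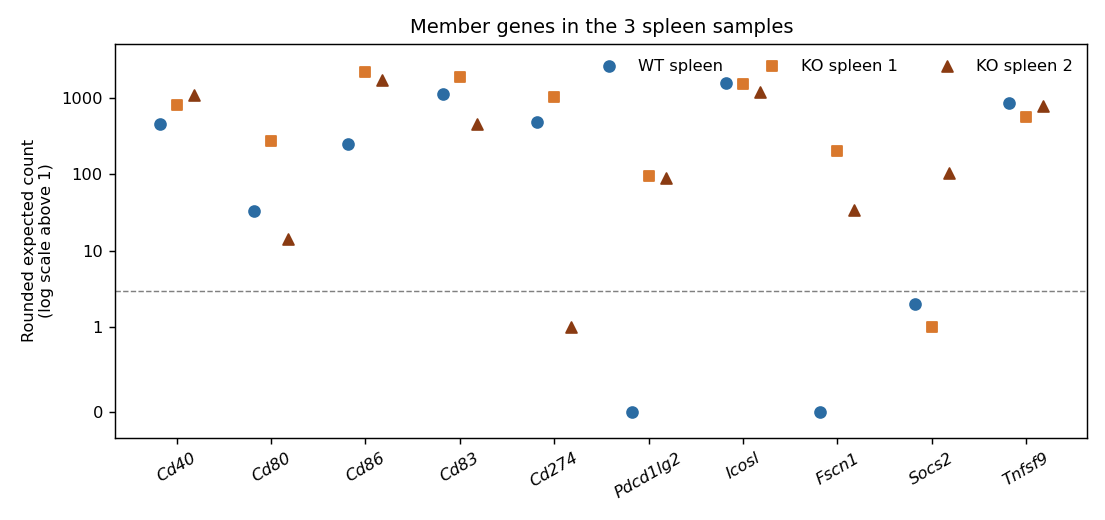
Rounded expected counts (y axis, logarithmic above 1) of the 10 genes (x axis) in the WT spleen sample and both DNGR-1 KO spleen samples; each point is 1 sample and the dashed line marks 3 counts. Pdcd1lg2 and Fscn1 are at 0 in WT, Cd274 is at 1 in KO spleen 2, and Socs2 is above the line in KO spleen 2 only.

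The genes with the most similar profile were sought by Pearson's r of log2 CPM over the 9 samples among 12400 genes whose mean reached 1 CPM, as a description without a p, since the samples share tissue and depth. Cd83 was closest to Treml4, Mtmr11 and Tlr1 (r = 0.99, 0.99 and 0.98). Cd86 was closest to Pim1, which encodes a kinase induced by cytokines, Crybg1 and Snx16 (r = 0.98, 0.97 and 0.97), and Cd40 to Tor3a, Usp18, which encodes an interferon-induced protease, and Sgpp1 (r = 0.96, 0.94 and 0.93). Cd80 was closest to the MHC class II accessory gene H2-DMb2 (r = 0.99), followed by 3830406C13Rik and Txndc15 (r = 0.96 and 0.94). For Icosl the closest were Pirb, Bhlhe40 and Myadm (r = 0.98, 0.98 and 0.97). For Tnfsf9, the gene that differed least between tissues, they were Bmp2k, Arl11 and Cyp4f18 (r = 0.84, 0.84 and 0.83).

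The remaining 4 genes were each at or under 3 counts in 2 or more of the 9 samples. Cd274 was closest to Exoc3, Wfs1 and Cnrip1 (r = 0.96 each) and Pdcd1lg2 to Cyp7b1, Itga9 and Bglap3 (r = 0.995, 0.995 and 0.993). Fscn1 was closest to Nup153, Eaf2 and Phf11c (r = 0.96, 0.95 and 0.94), and Socs2 to B3galt5, Snai3 and Acss2 (r = 0.95 each). No gene of the group was among the 3 closest of another. With the 6 BM samples alone 1 of these 30 pairs remained among the 3 closest.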

How the data were processed

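Pre-cDCs were sorted from BM and spleen of mixed BM chimeras and sequenced as total RNA after ribosomal RNA removal (KAPA Hyper prep with RiboErase) with DNBSEQ technology. The submitters' processing notes name Trimmomatic 0.36, STAR 2.5.2, RSEM 1.3.0, DESeq2 1.18.1, R 3.4.3 and GRCm38. The authors deposited expected counts of 51912 genes, not normalized (25.6% of nonzero entries are fractional), and log2 values of 20810 genes after variance stabilization, with a floor of 8.43, used here only as an alternative for profiles. RSEM divides reads shared between genes, and the strand setting is not given in the sources used here. Cd274, Pdcd1lg2 and Tnfsf9 overlap annotated genes on the opposite strand, whose reads could be counted with them if strand was not used.

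Expected counts were rounded, since the design had assumed whole counts. The main test was that of edgeR 4.0.16 under R 4.3.3 (TMM, filterByExpr by the compared groups, quasi-likelihood test, Benjamini-Hochberg adjustment over all genes tested, threshold 0.05). The standard error was taken from the F statistic. Samples were grouped by their labels. BM genotypes were compared over 6 samples, tissues over 9 with genotype as a covariate, and tissues within DNGR-1 KO over 5. Spleen genotypes were not tested. Log2 CPM used a prior count of 2, and RPKM the exon length of GENCODE M21 (GRCm38). Totals of 17103806 to 23722298 put 3 counts at 0.126 to 0.175 CPM. No samples were close enough to be the same library (chi-square per gene 28.9 to 257 between replicates). Scripts were tested on simulated counts with known changes. DESeq2 1.42.0, limma 3.58.1 (voom), other filters and scalings, the replicate number as a block, the chromosome 1 congenic score as a covariate and each sample left out were alternatives. The splenic cDC1 samples of the study were not analysed here.

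The 10 genes and the other lists were chosen with earlier results of these data known. Named are all 10, from the other lists the genes past the threshold in BM and the 3 of lowest adjusted p in each direction between tissues, and the 3 closest profiles per gene. Tnfsf14, Ccl17, Ccl22, Pdcd1, Ctla4, Tnfrsf9, Cd40lg, the B cell markers named singly and the genes named for spleen genotypes outside the 10 were chosen after their values were seen.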

Additional observations from a re-analysis of the deposited data

Results flagged for a closer look

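Icosl, the ICOS ligand gene, had genotype differences of opposite sign in the 2 tissues. The mean log2 CPM of the DNGR-1 KO samples minus that of WT was 0.49 in BM and -0.48 in spleen, a gap of -0.97, and both KO spleen samples were below the WT spleen sample. The WT and KO values overlapped in BM, spleen had 1 WT sample, and the difference between the tissues was not tested.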

How the results depend on the processing

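No alternative brought a gene of the group past the threshold in BM, where the number of genes called among all tested was 4 in the design used, 11 by DESeq2, 10 without a filter on low counts and 2 to 15 with 1 sample left out. Between tissues 3 genes of the group passed. With the replicate number as a block 1 did (Cd83), and among DNGR-1 KO samples only 1 did (Cd86). DESeq2 added Cd274, and without a filter on low counts Cd40 was lost (edgeR, adjusted p = 0.0806). The range was 1 to 4 with 1 sample left out. The block lowered the number of all genes called from 2631 to 1246, DESeq2 raised it to 3946, and a minimum of 10 counts in every sample lowered it to 1762 and moved the share called higher in spleen from 37.2% to 55.4%. Within DNGR-1 KO 1 gene passed, 3 by DESeq2, 0 with the replicate block and 0 to 6 with 1 sample left out, where all genes called were 1336, 2857, 0 and 0 to 3813. The upper ends of the last 2 ranges came from fits with 1 KO spleen sample left, which is assumed to vary like the BM samples. They are therefore not read as calls. Without KO BM sample 1, 2 or 3, 0 genes of the group and 135, 140 and 0 of all genes passed. These alternatives within DNGR-1 KO were added after seeing the data. Over all genes, same-numbered WT and KO BM samples had deviations correlated at 0.10, 0.10 and -0.08, and not every sample correlated best with its own number. Single markers differed in this. S100a8 followed the numbers, with 2995, 227 and 831 counts in WT and 3297, 293 and 818 in KO BM samples 1 to 3. Hba-a1 did not, with 1448, 226 and 578 counts in WT and 1484, 652 and 1727 in KO. Whether same-numbered samples shared mice was not tested, and the main and permutation tests treat samples as independent. Signs turned for Tnfsf9 between tissues with the block (-0.095), in KO only (-0.30) and with 1 sample left out (-0.30 to 0.30), and for Cd274 within KO with the block (-0.17). With 1 sample left out, log2 fold changes ran in BM from -0.20 to 0.52 for Cd86 and from -0.054 to 0.38 for Tnfsf9, between tissues from -0.11 to 3.25 for Fscn1 and from -1.19 to 3.27 for Socs2, and within KO from -1.38 to 3.28 for Cd80, -5.36 to 5.0 for Cd274, -1.92 to 4.23 for Socs2 and -0.44 to 0.042 for Tnfsf9. Of the 30 closest profiles, 19 remained with the deposited log2 values and 1 with the BM samples alone. Median-of-ratios scaling kept the calls and signs of the group in BM, between tissues and between spleen genotypes, and was not run within DNGR-1 KO. The causes were not tested.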

Other observations

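Values of other maturation genes in the spleen samples of the 2 genotypes are given here without a test. Of 21 such genes that passed the filter 5 were higher and 3 lower by more than 1 on the log2 scale in both DNGR-1 KO samples, beside 16.5% and 9.03% of all genes that passed it. Serpinb9, which encodes an inhibitor of granzyme B, had 0 counts in WT spleen and 862 and 1540 counts in KO spleen, with 35 to 174 counts in BM. Cd200, which encodes a ligand of an inhibitory myeloid receptor, had 0 counts in WT spleen, 371 in KO spleen sample 1 and 5 in KO spleen sample 2, which is at least 1.19-fold the 3 counts that 0 in WT allows, so that its place among the 5 depends on the prior count. Traf1 was 2.82-fold and 2.45-fold the WT value in KO samples 1 and 2, and Socs1, an inhibitor of JAK signalling, 3.33-fold and 10.2-fold. Nfkb2, which encodes the p100 subunit of NF-kappa B, was 0.489-fold and 0.474-fold. Among STAT5 and SOCS genes Stat5b was 2.70-fold and 3.35-fold the WT value, and Cish, a target of STAT5, had 164 counts in WT spleen and 38 and 9 in KO spleen. Il12b, a subunit of interleukin 12 and 23, had 398 counts in WT spleen, 0 in KO spleen sample 1, 477 in KO spleen sample 2 and 0 in every BM sample.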
